A study of Mus musculus with 12 samples.

Results

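Lineage-negative, cKit-positive bone marrow cells were profiled by RNA-seq to ask what an inv(3) allele changes in marrow that already carries the Sf3b1 K700E mutation. The comparison used the 3 libraries of Mx1-Cre Sf3b1-K700E:Inv(3) donors, called double mutant here, and the 3 libraries of Mx1-Cre Sf3b1-K700E donors, which are 6 of the 12 libraries of the series. The other 6 libraries came from Mx1-Cre Inv(3) donors and from Mx1-Cre control donors, with 3 in each group, and entered only where the effect of inv(3) without Sf3b1 K700E was set beside the one measured here. All mice were of the C57BL/6 strain, and all 4 donor genotypes carried Mx1-Cre, so the control is not free of the recombinase. Marrow of CD45.2-positive donors was mixed with the same number of wild-type CD45.1-positive support cells and transplanted into lethally irradiated CD45.1-positive recipients. The recipients later received 3 injections of pIpC at 20 mg/kg, which turns on Mx1-Cre, and marrow of the femora and tibiae was taken 6 months afterwards. The Sf3b1 allele was heterozygous per the study's design text. How the inv(3) allele was built, and whether donor cells were sorted from support and host cells, is not stated in the labels, so support and host cells may be among the cells sequenced. The labels do not say that replicates are separate mice, so each p-value reflects only how far these samples vary, and part of that may be technical. Genes are named by size of change, by abundance and by smallest p within lists, so they are not typical members. Some list members were named after their values were seen. Of 23248 autosomal genes listed, 13252 passed the filter on low counts and were tested.

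The human inversion inv(3) brings a distal enhancer of GATA2 next to MECOM, the gene that encodes the zinc-finger transcription factor EVI1. EVI1 is normally active in haematopoietic stem cells, and its misexpression goes with aggressive myeloid leukaemia in which GATA2 is expressed from the other allele only. SF3B1 is a core subunit of the U2 small nuclear ribonucleoprotein, which recognises the branch point of introns, and its K700E mutation makes the spliceosome use alternative 3′ splice sites. The deposited tables hold 1 value per gene, so the use of splice sites was not analysed here. Lineage-negative, cKit-positive marrow is a mixture of stem cells and progenitors of neutrophils, monocytes, red cells, megakaryocytes, mast cells and basophils. In such a bulk sample, fewer cells of a type and less RNA per cell cannot be told apart.

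The 3 double mutant libraries held 84185031, 78746482 and 76763188 expected counts, and the 3 Sf3b1 K700E libraries held 79242963, 73074797 and 86555638. Levels are given as CPM, counts scaled to a common library size, and changes as log2 of double mutant over Sf3b1 K700E. Kit stood between 443 and 468 CPM in double mutant libraries and between 420 and 434 CPM in Sf3b1 K700E libraries, while the T-cell gene Cd3e was below 1 CPM in all 6. Itgam, which encodes the lineage antigen CD11b, was not low, with 258 to 307 CPM in double mutant libraries and 104 to 163 CPM in Sf3b1 K700E libraries. Xist, the RNA of the inactive X chromosome, was at 23.2, 40.5 and 27.5 CPM in double mutant libraries and at 191, 210 and 77.1 CPM in Sf3b1 K700E libraries. Control libraries had 34.7, 23.99 and 39.9 CPM of Xist, and all 9 of these libraries also held 19200 to 25380 counts of Y-linked genes. Xist therefore separated the groups without overlap. A fit with log2 Xist as a term over these 9 libraries can tell the term and the genotype apart only in part, and its counts are given beside the lists below. A call lost in that fit is not by itself a smaller change, so log2 changes with the term are given beside lost calls. It called 536 genes higher and 727 lower, against 3407 and 3109 without the term.

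Adding inv(3) on the Sf3b1 K700E background changed 6516 of 13252 autosomal genes, or 49.2%, by edgeR's quasi-likelihood test at a Benjamini-Hochberg adjusted p below 0.05. Of these, 3407 were higher in double mutant cells (25.7%) and 3109 were lower (23.5%). Which direction held more calls depended on the scaling and the samples: 3106 were higher and 3382 lower with the 50 most abundant genes left out, 3225 and 3263 with RLE size factors, and 2917 and 3176 with the 6 libraries alone. The rises were mostly small and the falls reached further. The median size was 0.42 log2 units for genes that rose and 0.57 for genes that fell, and 643 genes rose by over 1 log2 unit (4.85%) while 1232 fell by as much (9.3%). Past 4 log2 units, 46 genes were higher and 163 were lower. The median change over all 13252 genes was 0.025. The split also followed abundance: of 91 genes averaging at least 1000 CPM, 27 were higher and 9 lower, whereas of 2046 genes below 1 CPM, 304 were higher and 659 lower. The 6 libraries fell into groups without overlap for 7623 genes (57.5%). With 3 libraries in each group this count also takes in genes whose difference is small. Counts of list members below stand against the shares of all genes, 25.7% higher and 23.5% lower. A list close to these shares shows nothing particular to its members.

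**Figure D1:**
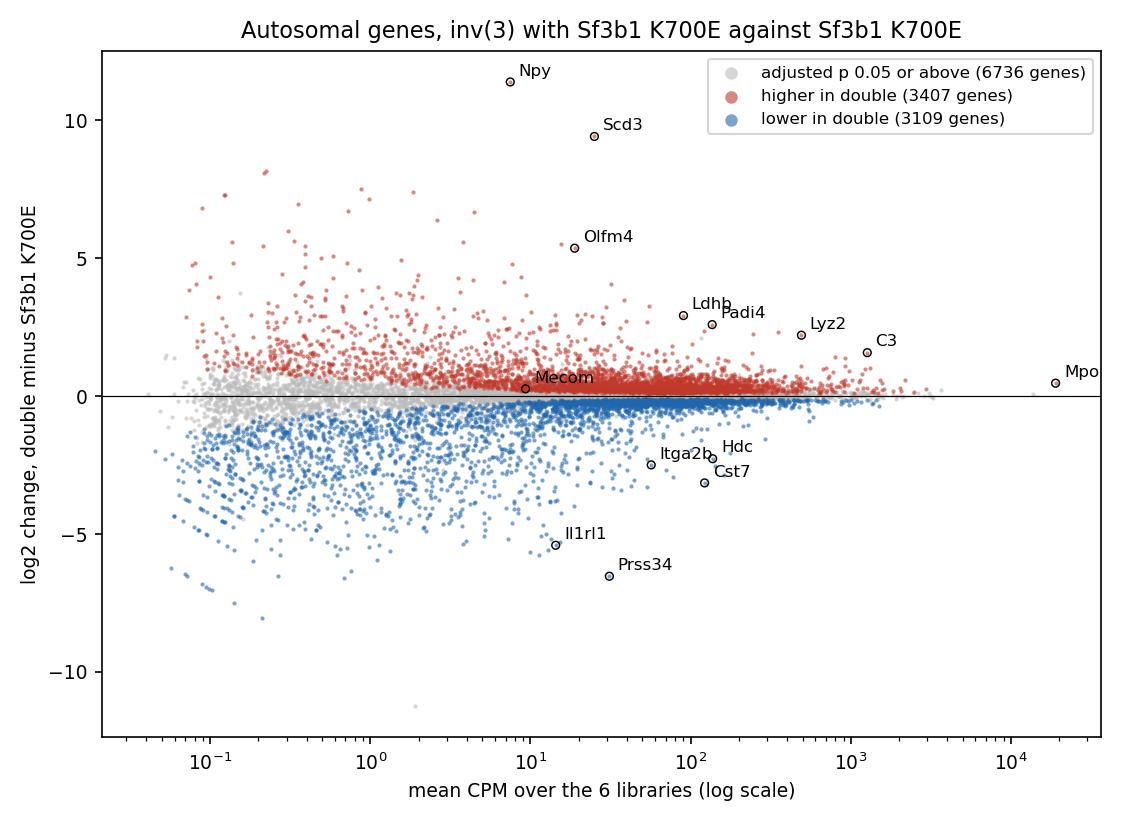
Log2 change of each tested autosomal gene, double mutant minus Sf3b1 K700E (vertical), against its mean CPM over the 6 libraries (horizontal, log scale). Red points mark the 3407 genes that were higher, blue points the 3109 that were lower and grey points the genes that did not pass, and circles mark named genes. Large falls are more frequent than large rises, Npy and Scd3 are the highest named points, and Mecom lies near 0.

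At the genes of the 2 alleles the comparison found little. Mecom (chromosome 3, 29951296 to 30509759, GRCm38) had 10.3, 8.98 and 11.2 CPM in double mutant libraries and 7.12, 10.99 and 7.32 CPM in Sf3b1 K700E libraries. The groups overlapped, and the change of 0.26 ± 0.19 (SE) did not pass (edgeR adjusted p = 0.28). Whether transcripts of the inv(3) allele are of mouse sequence, and so would be counted at Mecom, is not stated in the labels, and this gene therefore does not check them. Gata2 (chromosome 6, 88193891 to 88207032), a zinc-finger factor of stem, mast and megakaryocyte cells, had 110, 68.3 and 94.9 CPM in double mutant libraries and 128, 119 and 94.2 CPM in Sf3b1 K700E libraries, a change of -0.32 ± 0.17 that did not pass (edgeR adjusted p = 0.14, and 0.0459 without double mutant replicate 1). Rpn1, a subunit of the oligosaccharyltransferase whose human gene lies at the chromosome 3q21 breakpoint region, changed by -0.09 ± 0.05 and did not pass (edgeR adjusted p = 0.16, and 0.00933 without double mutant replicate 2). Sf3b1 itself, mutant and wild-type transcripts together, changed by 0.07 ± 0.06 and did not pass.

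Genes within 500 kb of Mecom and Gata2 showed mostly small changes. Near Mecom, Gpr160 rose by 0.38 ± 0.08, Phc3 rose by 0.14 ± 0.05 at an edgeR adjusted p of 0.041, and Mynn, Prkci and Sec62 did not pass. Phc3 no longer passed when any one library other than double mutant replicate 2 was left out. Near Gata2, Copg1 rose by 0.20 ± 0.05, and Cnbp, Efcc1, Gm5577, Hmces, Isy1, Rab43 and Ruvbl1 fell. Eefsec, Gp9, H1fx, Kbtbd12, Rab7 and Sec61a1 did not pass, like Gata2 and Rpn1. Calls near the loci stand against the 49.2% of all autosomal genes that were called, so they do not show a regional effect. Cnbp lost its call without Sf3b1 K700E replicate 2 (edgeR adjusted p = 0.0854) or 3 (0.0561) and without double mutant replicate 1 (0.0912) or 3 (0.0749), and Hmces lost its call without double mutant replicate 1 or 2 (0.0531 for each). Efcc1 was the one large change there, with 0.14, 0.18 and 0.09 CPM in double mutant libraries against 3.15, 3.25 and 2.39 CPM in Sf3b1 K700E libraries, and it fell by 4.38 ± 0.44. The calls of Gpr160, Phc3, Cnbp, Copg1, Gm5577, Hmces, Isy1, Rab43 and Ruvbl1 ended with the Xist term, where the change was 0.16 for Gpr160, 0.002 for Phc3 and 0.22 for Copg1 and lay between -0.37 and -0.06 for the others.

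The largest changes were ranked among called genes reaching 5 CPM whose 6 libraries did not overlap between groups, leaving out predicted genes, clones and pseudogenes. The largest rises were in genes that were nearly silent without inv(3). Npy encodes neuropeptide Y, a peptide of neurons that is also made by megakaryocytes and some progenitors. It had 16.9, 11.3 and 16.7 CPM in double mutant libraries and 0, 0.013 and 0 CPM in Sf3b1 K700E libraries. Summed over libraries these are 3549 counts against 1 count, a ratio of 3755 with an exact 95% interval for counting error of 673.5 to 148350. Scd3, a stearoyl-CoA desaturase that puts a double bond into saturated fatty acids, had 38.4, 53.6 and 58.3 CPM in double mutant libraries against 0.072, 0.026 and 0.11 CPM in Sf3b1 K700E libraries. Its summed counts were 11754 against 18, a ratio of 690.9 (437 to 1166, counting error only). In both genes every double mutant library was far above every Sf3b1 K700E library.

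The sequences in front of the start sites of 4 genes are shown because they hold the largest rises in double mutant cells (Npy and Scd3), the largest rise among genes averaging at least 100 CPM (Padi4) and the fall with the smallest p of all named genes (Il1rl1, with 2 start sites). Each is the 250 bases before a RefSeq start site on GRCm38.p6, written 5′ to 3′ on the gene's strand, with matches to 5 searched motifs in capitals. The motifs were AGATAA for GATA factors, ACAAGATA for the first zinc-finger domain of EVI1, TTGCNNAA for C/EBP factors, CAGGAAGT for ETS factors and TGTGGTT for RUNX factors. Both strands were searched, and ACAAGATA followed by A contains AGATAA.
Npy, chr6:49822460-49822709, plus strand: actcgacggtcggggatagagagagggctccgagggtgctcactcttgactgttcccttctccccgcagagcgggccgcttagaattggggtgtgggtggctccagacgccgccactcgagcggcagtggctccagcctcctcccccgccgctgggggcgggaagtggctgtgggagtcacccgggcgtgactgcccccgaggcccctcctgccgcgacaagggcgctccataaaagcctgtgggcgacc
Scd3, chr19:44203038-44203287, plus strand: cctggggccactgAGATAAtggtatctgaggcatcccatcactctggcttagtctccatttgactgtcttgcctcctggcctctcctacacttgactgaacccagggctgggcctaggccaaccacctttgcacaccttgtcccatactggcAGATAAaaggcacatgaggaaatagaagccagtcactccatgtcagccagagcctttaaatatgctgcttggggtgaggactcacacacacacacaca
Padi4, chr4:140774204-140774453, minus strand: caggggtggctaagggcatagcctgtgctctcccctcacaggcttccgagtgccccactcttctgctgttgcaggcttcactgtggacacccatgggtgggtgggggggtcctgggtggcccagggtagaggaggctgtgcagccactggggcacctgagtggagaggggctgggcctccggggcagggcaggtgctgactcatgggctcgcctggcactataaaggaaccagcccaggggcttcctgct
Il1rl1 first start, chr1:40429320-40429569, plus strand: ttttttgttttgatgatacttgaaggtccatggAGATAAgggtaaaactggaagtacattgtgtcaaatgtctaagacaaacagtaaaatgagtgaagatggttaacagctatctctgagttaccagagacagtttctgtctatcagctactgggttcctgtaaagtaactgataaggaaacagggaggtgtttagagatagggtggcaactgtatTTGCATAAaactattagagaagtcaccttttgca
Il1rl1 second start, chr1:40439379-40439628, plus strand: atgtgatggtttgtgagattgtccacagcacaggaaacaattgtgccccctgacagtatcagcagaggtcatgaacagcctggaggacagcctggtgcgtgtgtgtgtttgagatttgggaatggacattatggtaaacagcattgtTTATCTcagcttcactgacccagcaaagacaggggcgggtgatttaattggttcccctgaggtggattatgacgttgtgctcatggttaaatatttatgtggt

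In these windows the Scd3 sequence held AGATAA at 237 and 98 bases before its start, and the first Il1rl1 window held AGATAA at 217 bases and the C/EBP letters TTGCATAA at 34 bases. The second Il1rl1 window held the GATA letters on the opposite strand, written TTATCT, at 103 bases. The Npy and Padi4 windows held no match to the 5 motifs. Of 13350 windows of 10543 tested genes, AGATAA was in 6.08%, against 7.12% of windows of genes higher by over 1 log2 unit and 9.35% of windows of genes lower by as much. The EVI1 letters were in 0.315% of all windows, in 0.158% of the higher class and in 0.257% of the lower class. The C/EBP letters were in 7.9% of all windows, 10.1% of the higher class and 8.66% of the lower class. In the same order, the ETS letters were in 2.79%, 2.37% and 4.03%, and the RUNX letters in 3.32%, 4.91% and 4.12%. These shares are descriptions of the letters and carry no test.

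Other genes that were low without inv(3) rose with them. Plekhh2, a pleckstrin-homology protein of kidney podocytes, had 31.3, 29.2 and 31.0 CPM in double mutant libraries and 0.57, 0.77 and 0.64 CPM in Sf3b1 K700E libraries, and rose by 5.53 ± 0.14. Olfm4, a secreted glycoprotein of a subset of neutrophils, had 32.6, 37.3 and 40.8 CPM in double mutant libraries against 0.39, 0.46 and 1.78 CPM in Sf3b1 K700E libraries. Among the rest of the 12 largest rises were Cacna1b, a subunit of neuronal calcium channels (4.79 ± 0.38), and the receptors Cd200r3 (4.31 ± 0.30) and Ptprf (3.68 ± 0.39). Ms4a4c, a four-span membrane protein, had 61.2, 55.3 and 63.3 CPM in double mutant libraries against 3.20, 3.65 and 3.85 CPM in Sf3b1 K700E libraries. Bpifc, the bicarbonate transporter Slc4a8 and the stem-cell antigen gene Ly6a were also among the 12, with changes of 3.49, 3.26 and 3.23. Absence of overlap between the groups was part of the rule that picked these genes. Each of their calls held with the Xist term.

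A count limit gave a second view of genes at the edge of detection. Genes with at most 30 counts summed over one group and at least 500 over the other numbered 14 on the side that was off in double mutant cells and 6 on the side that was on. The 6 were Npy, Scd3, D930020B18Rik, Fam20a, Strc and Fcer2a. Fcer2a, the low-affinity IgE receptor CD23, had 2064 summed counts in double mutant cells against 21 in Sf3b1 K700E cells, a ratio of 104 (67.8 to 168). Fam20a, a pseudokinase of the secretory pathway, had 861 against 5 (ratio 182, 77.8 to 563). The 14 that were off were H2-Q6, Pgr, Emcn, Sh3tc2, Thsd4, Prss50, Tmem246, Ltbp1, Ugt8a, Slc26a1, Epb4.2, Hoxa10, Kcna2 and Cd22. Pgr, the progesterone receptor, had 8 summed counts in double mutant cells against 538 in Sf3b1 K700E cells, so that the Sf3b1 K700E level was 63.6 times higher (32.0 to 148). Emcn, the sialomucin endomucin of endothelium and stem cells, had 12 against 638, or 50.2 times higher in Sf3b1 K700E cells (28.6 to 97.8). H2-Q6 had 0, 236 and 752 counts in the Sf3b1 K700E libraries and was the one of these that did not pass (edgeR adjusted p = 0.0507). It passed when autosomal genes alone were fitted (0.045) and in DESeq2 (2.47e-08), and not in limma-voom (0.22). The named log2 changes of these genes come from fits close to 0 counts and depend on the prior count.

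Of the 12 largest falls among called genes reaching 5 CPM, Prss34, Il1rl1 and Ear1 were genes of basophils, mast cells and eosinophils. Prss34, the largest, a serine protease of basophils, had 0.56, 0.90 and 0.54 CPM in double mutant libraries against 71.9, 51.0 and 61.7 CPM in Sf3b1 K700E libraries, a fall of 6.53 ± 0.67 on the log2 scale. Il1rl1, the interleukin 33 receptor ST2 of mast cells, basophils and some lymphocytes, had 0.58, 0.64 and 0.77 CPM in double mutant libraries against 29.5, 27.9 and 26.9 CPM in Sf3b1 K700E libraries, and fell by 5.41 ± 0.12 (edgeR adjusted p = 2.7e-10). Both genes were below 1 CPM in each double mutant library, while absence of overlap was part of the rule that picked them. The other 10 of the 12 largest falls were Tmem184c, Dntt, C1qtnf6, Cttn, Serpinf1, Tfpi, Tmem56, Pdgfrb, Cnn3 and Ear1, with changes between -5.77 and -4.86. Dntt, the terminal transferase of lymphoid progenitors, had 0.26, 0.49 and 0.42 CPM in double mutant libraries against 21.2, 17.8 and 19.7 CPM in Sf3b1 K700E libraries. Tfpi, an inhibitor of the tissue factor pathway of coagulation, had 0.97, 0.53 and 0.66 CPM against 24.7, 23.3 and 30.2 CPM in the same order of groups.

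Of 22 tested genes of mast cells, basophils and eosinophils, 14 fell and 3 rose, with a median change of -1.13, against 0.025 over all genes. Their summed level was 536, 516 and 574 CPM in double mutant libraries and 1421, 1193 and 1242 CPM in Sf3b1 K700E libraries, and it was 1206 to 1346 CPM in control libraries. Cpa3, the carboxypeptidase of mast-cell granules, fell to 9.38, 9.60 and 10.8 CPM in double mutant libraries, against 98.6, 100 and 90.3 CPM in Sf3b1 K700E libraries. Ms4a2, the beta chain of the high-affinity IgE receptor, fell by 2.72 ± 0.13, and Hdc, which makes histamine, fell by 2.27 ± 0.11. Prg2, the eosinophil major basic protein, had 150, 135 and 159 CPM in double mutant libraries against 503, 395 and 412 CPM in Sf3b1 K700E libraries. Ear1 and Ear2, eosinophil-associated ribonucleases with similar sequences, fell by 4.86 and 3.80, though reads could have been split between them. Cd200r3, a receptor of basophils and mast cells, was 1 of the 3 that rose, and the Il5ra change of 0.34 ± 0.34 did not pass. With Xist in the fit, 10 of the 22 were lower and 1 was higher, and Prss34, Il1rl1, Cpa3, Ms4a2 and Prg2 kept their calls while Mcpt8 lost its own at a change of -0.55, against -0.56 without the term.

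Genes of red-cell formation fell together. Of 33 tested erythroid genes, 28 fell and 2 rose, with a median of -2.29. Their summed level was 700, 566 and 699 CPM in double mutant libraries against 1612, 1714 and 1538 CPM in Sf3b1 K700E libraries, and 1320 to 1374 CPM in control libraries. The membrane skeleton gene Sptb, which encodes beta-spectrin, had 0.35, 0.30 and 0.86 CPM in double mutant libraries against 11.7, 10.1 and 10.1 CPM in Sf3b1 K700E libraries. The carbonic anhydrases Car1 and Car2 fell by 2.55 ± 0.41 and 2.07 ± 0.25. The water channel gene Aqp1 fell to 22.3, 11.99 and 18.96 CPM in double mutant libraries, against 147, 135 and 129 CPM in Sf3b1 K700E libraries. In each of these genes the highest double mutant library was below the lowest Sf3b1 K700E library. These genes were not named independently of their values, and 57.5% of all genes were free of overlap, so this adds little. Once Xist was a term, 19 of the 33 were lower and 2 were higher.

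The globin genes did not move as 1 group. Hba-a1, an adult alpha globin, had 6.32, 6.04 and 6.54 CPM in double mutant libraries against 67.7, 86.7 and 45.7 CPM in Sf3b1 K700E libraries, and averaged 10.4 CPM in control libraries. Hbb-b1, an adult beta globin, had 20.5, 9.32 and 14.3 CPM in double mutant libraries against 56.2, 75.2 and 35.5 CPM in Sf3b1 K700E libraries, and averaged 3.93 CPM in control libraries. Hbb-b2 and Hbb-bt were listed with the same values as each other, 44.5, 41.0 and 61.3 CPM in double mutant libraries against 7.06, 11.2 and 5.16 CPM in Sf3b1 K700E libraries, and each rose by 2.65 ± 0.37. These adult globins are near-identical copies, so how the estimates divided reads among them is uncertain, and so is the opposite direction of Hbb-b2 and Hbb-b1. The Hba-a2 and Hbb-b1 falls lost their calls with the Xist term, where the changes were -0.92 and -1.05, against -2.29 and -1.92 without it.

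Megakaryocyte genes fell in the same way: 19 of 25 tested were lower and 3 were higher, with a median of -1.63. Itga2b, the platelet integrin CD41, had 21.1, 12.8 and 17.4 CPM in double mutant libraries against 105, 103 and 81.2 CPM in Sf3b1 K700E libraries. Plek, a protein kinase C substrate of platelets, fell (-2.69 ± 0.16), as did Treml1 (-4.06 ± 0.33) and the thrombin receptor gene F2rl2 (-3.30 ± 0.22). Not every gene of platelet granules fell. Thbs1, thrombospondin 1, had 58.5, 52.8 and 36.4 CPM in double mutant libraries against 5.90, 8.62 and 5.81 CPM in Sf3b1 K700E libraries, and Selp, P-selectin, had 143, 106 and 162 CPM against 52.5, 56.8 and 46.4 CPM, again with the double mutant first. With the Xist term 8 of 25 were lower and 2 higher, at a median of -1.54. The calls of Pf4 and Vwf ended there at changes of -1.58 and -1.28, against -1.62 and -1.53 without the term. Without Sf3b1 K700E replicates 1 and 2, those with the most Xist, an alternative chosen after seeing the data, Pf4 and Vwf were also lost (edgeR adjusted p = 0.13 and 0.055).

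Named transcription factors that direct these lineages went both ways. Tal1, a helix-loop-helix factor needed for red-cell and megakaryocyte formation, had 41.4, 27.4 and 37.6 CPM in double mutant libraries against 100, 106 and 91.5 CPM in Sf3b1 K700E libraries, a change of -1.48 ± 0.12. Klf1, the erythroid Krüppel-like factor, fell by 2.03 ± 0.38, and Gfi1b, a repressor of both lineages, had 9.497, 4.37 and 7.08 CPM against 39.1, 34.3 and 26.4 CPM, the double mutant first. Other named factors were higher: Lmo2 rose by 0.27 ± 0.05, Lyl1 by 0.58 ± 0.13 and Nfe2 by 0.52 ± 0.05. Zfpm1, of the erythroid list, changed by -0.46 ± 0.25 and did not pass (edgeR adjusted p = 0.155, and 0.0394 without double mutant replicate 1). The ETS factors Erg and Etv6 rose by 0.53 ± 0.06 and 0.47 ± 0.05, and Runx2 fell by 0.68 ± 0.06. Of the 26 GATA, TAL, ETS and RUNX family genes tested, 8 rose and 8 fell, with a median of -0.04. These counts are close to the shares of all genes. When Xist was included, 1 of the 26 was higher and 4 were lower. The calls of Klf1, Lmo2, Lyl1, Nfe2 and Erg ended there at changes of -2.33, 0.37, 0.60, 0.45 and 0.53, close to or above the sizes without the term, and those of Tal1, Gfi1b, Etv6 and Runx2 held. Heme and iron genes had 14 falls and 5 rises among 27, and 6 falls and 0 rises with the Xist term, including the iron importer Slc11a2 (-0.76 ± 0.04), the ferrireductase Steap3 (-1.25 ± 0.09) and Cpox of heme synthesis (-0.73 ± 0.05).

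Neutrophil genes moved the other way. Of 26 late neutrophil genes, 15 rose and 3 fell, with a median of 0.98, and of 22 primary granule genes, 15 rose and 3 fell, with a median of 0.40. The late neutrophil sum was 4179 to 5725 CPM in double mutant, 1903 to 3130 CPM in Sf3b1 K700E and 2285 to 3135 CPM in control libraries. The primary granule sum, in which Mpo weighs most, was 40190 to 46058, 28344 to 32932 and 43736 to 45908 CPM in that order. For primary granule genes the Sf3b1 K700E libraries were thus the low group, and double mutant libraries were not above control. Padi4, which converts histone arginine to citrulline in neutrophils, had 237, 230 and 234 CPM in double mutant libraries against 38.7, 39.2 and 38.3 CPM in Sf3b1 K700E libraries, a rise of 2.59 ± 0.10. Lyz2, lysozyme of neutrophils and macrophages, had 842, 652 and 932 CPM in double mutant libraries against 160, 186 and 179 CPM in Sf3b1 K700E libraries. Chil3, a chitinase-like protein of neutrophil granules, rose by 2.34 ± 0.25, Lrg1 by 2.09 ± 0.18 and Pglyrp1, a peptidoglycan-binding protein, by 1.31 ± 0.14. Lcn2, lipocalin 2, had 50.2, 64.5 and 80.9 CPM against 15.4, 19.4 and 23.2 CPM, the double mutant first. The alarmin genes S100a8 and S100a9 rose by 0.99 ± 0.20 and 0.92 ± 0.24.

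Camp and Ltf, genes of the same secondary granules as Lcn2 and Olfm4, did not pass. Camp, cathelicidin, had 48.9, 59.7 and 71.3 CPM in double mutant libraries and 56.7, 109 and 129 CPM in Sf3b1 K700E libraries, groups that overlapped. Ltf, lactoferrin, was at 1.45, 2.46 and 61.0 CPM in double mutant libraries and at 6.20, 10.3 and 12.5 CPM in Sf3b1 K700E libraries, so that double mutant replicate 3 alone set its mean. The Ltf change was 1.16 ± 1.16 and did not pass, and without that library it turned to -2.31 and passed. Mpo, myeloperoxidase and by far the highest of the granule genes in this comparison, had 21360, 23838 and 20917 CPM in double mutant libraries against 17458, 14098 and 16213 CPM in Sf3b1 K700E libraries, a rise of 0.47 ± 0.07. Prtn3, proteinase 3, rose by 0.58 ± 0.14, while Elane, neutrophil elastase, changed by 0.23 ± 0.10 and did not pass. Control libraries averaged 23104 CPM of Mpo, above the Sf3b1 K700E libraries.

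The list of the oxidase that makes superoxide in neutrophils also holds Sod1, which removes superoxide, and Cat, which removes hydrogen peroxide. Of its 13 tested genes 8 were higher and 4 lower, and 2 were higher and 0 lower with the Xist term. The membrane subunit Cyba of the oxidase rose by 0.78 ± 0.11, the proton channel Hvcn1 by 0.76 ± 0.08 and Rac2 by 0.34 ± 0.05. Sod1 fell by 0.49 ± 0.06. Rac2 and Sod1 lost their calls with the Xist term, at changes of 0.27 and -0.47. Of 35 transcription factors of the myeloid lineages 13 rose and 10 fell, with a median of 0.08, and 4 were higher and 2 lower with the Xist term. Spi1 (PU.1) had 157, 151 and 148 CPM in double mutant libraries against 115, 90.2 and 97.9 CPM in Sf3b1 K700E libraries. Cebpe and Gfi1, which act in granulocyte maturation, rose by 0.77 ± 0.19 and 0.45 ± 0.09, and Stat3, which transmits G-CSF signals, rose by 0.64 ± 0.04. Cebpa fell by 0.17 ± 0.06, a change that was lost when Sf3b1 K700E replicate 1, double mutant replicate 2 or double mutant replicate 3 was left out (edgeR adjusted p = 0.078, 0.080 and 0.071). The monocyte factors Irf8 and Klf4 fell by 1.03 ± 0.30 and 1.91 ± 0.41, with Irf8 at 148, 57.6 and 90.7 CPM in double mutant libraries against 232, 183 and 188 CPM in Sf3b1 K700E libraries. Irf8 no longer passed without Sf3b1 K700E replicate 1 (edgeR adjusted p = 0.057). Under the Xist term, 5 late neutrophil genes were higher and 1 lower, 3 primary granule genes were higher and 1 lower, and the calls of Mpo, Prtn3, Spi1, Cebpe, Gfi1, S100a8, S100a9, Lcn2, Irf8 and Klf4 ended. The changes with the term stayed at 0.45 for Mpo, 0.52 for Prtn3, 0.58 for Spi1 and 0.74 for Cebpe, and at 1.35 for Lcn2. They were smaller for Gfi1 (0.28), S100a8 (0.70) and S100a9 (0.55) and more negative for Irf8 (-1.59) and Klf4 (-2.58). Padi4, Lyz2, Chil3, Lrg1, Pglyrp1 and Stat3 held.

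**Figure D2:**
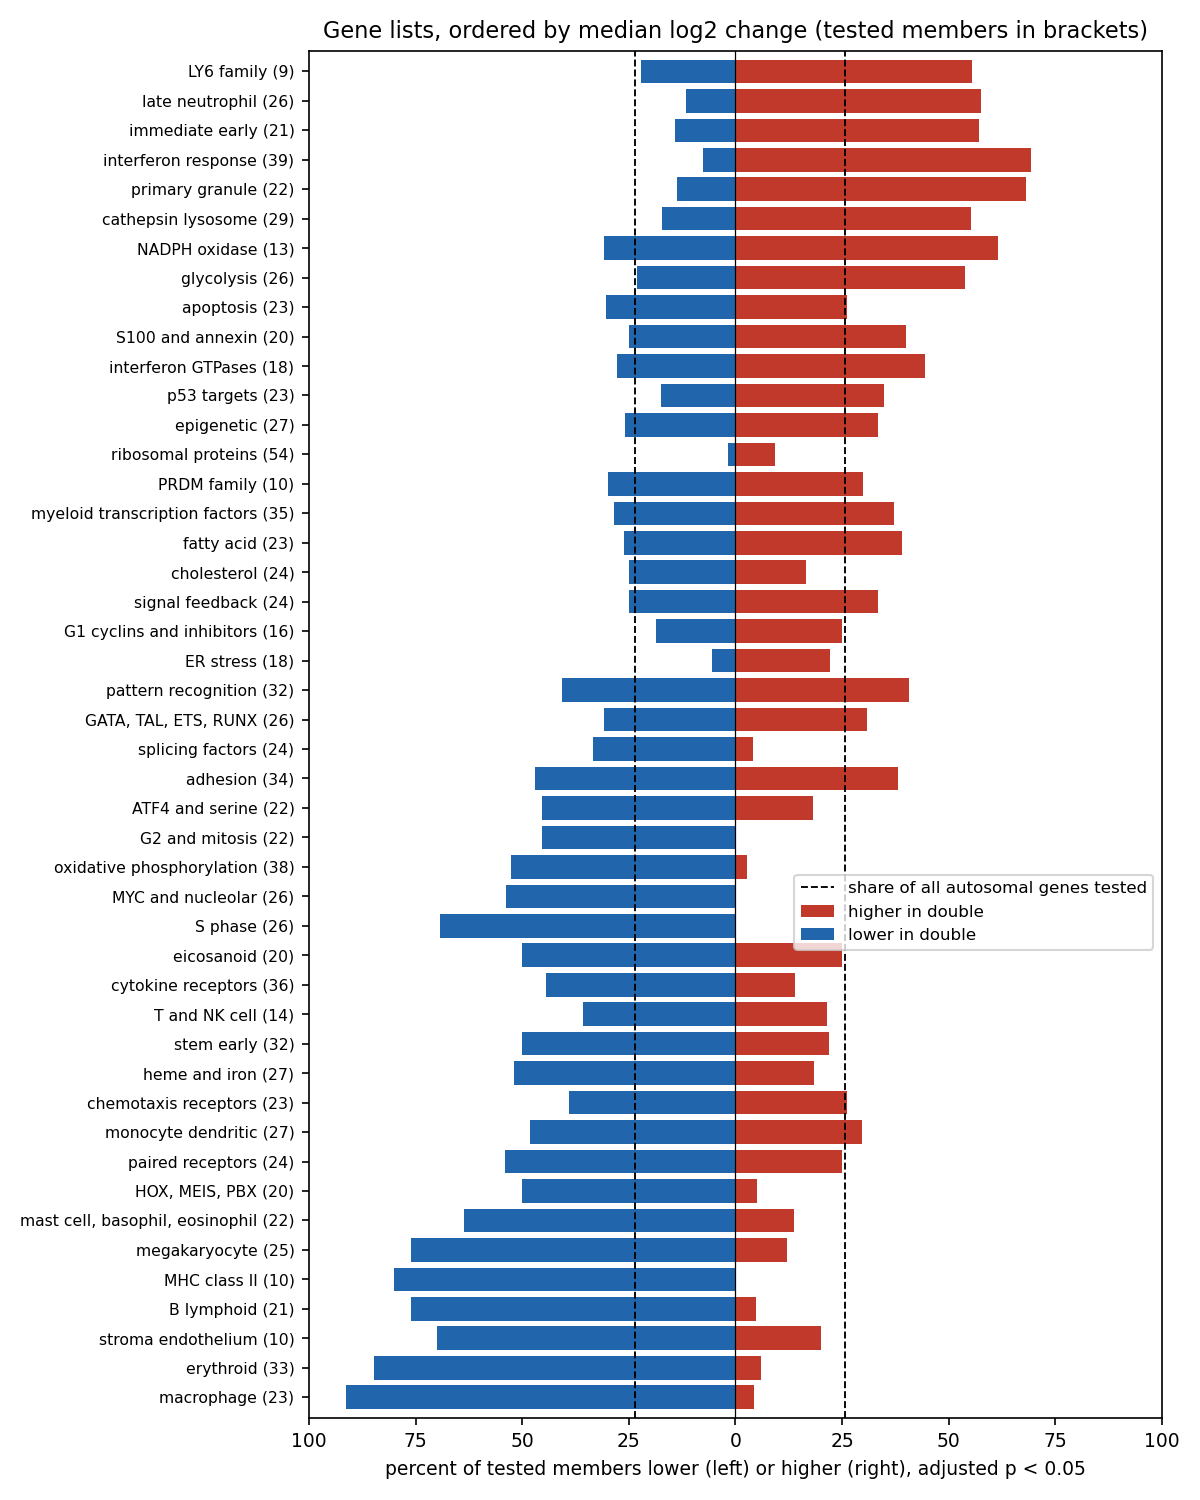
Percent of tested members of each of 46 gene lists that were lower (blue, left) or higher (red, right) in double mutant than in Sf3b1 K700E libraries, with the number of tested members in brackets and the lists ordered by median log2 change. Dashed lines mark the shares over all autosomal genes, 23.5% lower and 25.7% higher. LY6, neutrophil, immediate early and interferon lists stand at the top, and macrophage, erythroid, B lymphoid and megakaryocyte lists at the bottom.

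Among abundant genes, the rises beyond those of neutrophil granules were in the inducible heat-shock protein genes Hspa1a (2.36 ± 0.23) and Hspa1b (2.25 ± 0.21), which are near-identical copies, in Mrgpra2b (1.90 ± 0.15) and in the complement gene C3, among others. C3 had 1725, 2066 and 1899 CPM in double mutant libraries against 591, 592 and 726 CPM in Sf3b1 K700E libraries. Falls among abundant genes included Cst7, cystatin F of leukocyte lysosomes, with 22.6, 27.9 and 23.9 CPM in double mutant libraries against 205, 211 and 243 CPM in Sf3b1 K700E libraries. Itgal, the alpha chain of the integrin LFA-1, fell by 1.60 ± 0.07. Vcam1, an adhesion molecule of marrow macrophages, stroma and progenitors, had 41.8, 43.0 and 31.4 CPM against 230, 317 and 308 CPM, the double mutant first, with a control mean of 313 CPM. All of these calls held with the Xist term.

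**Figure D3:**
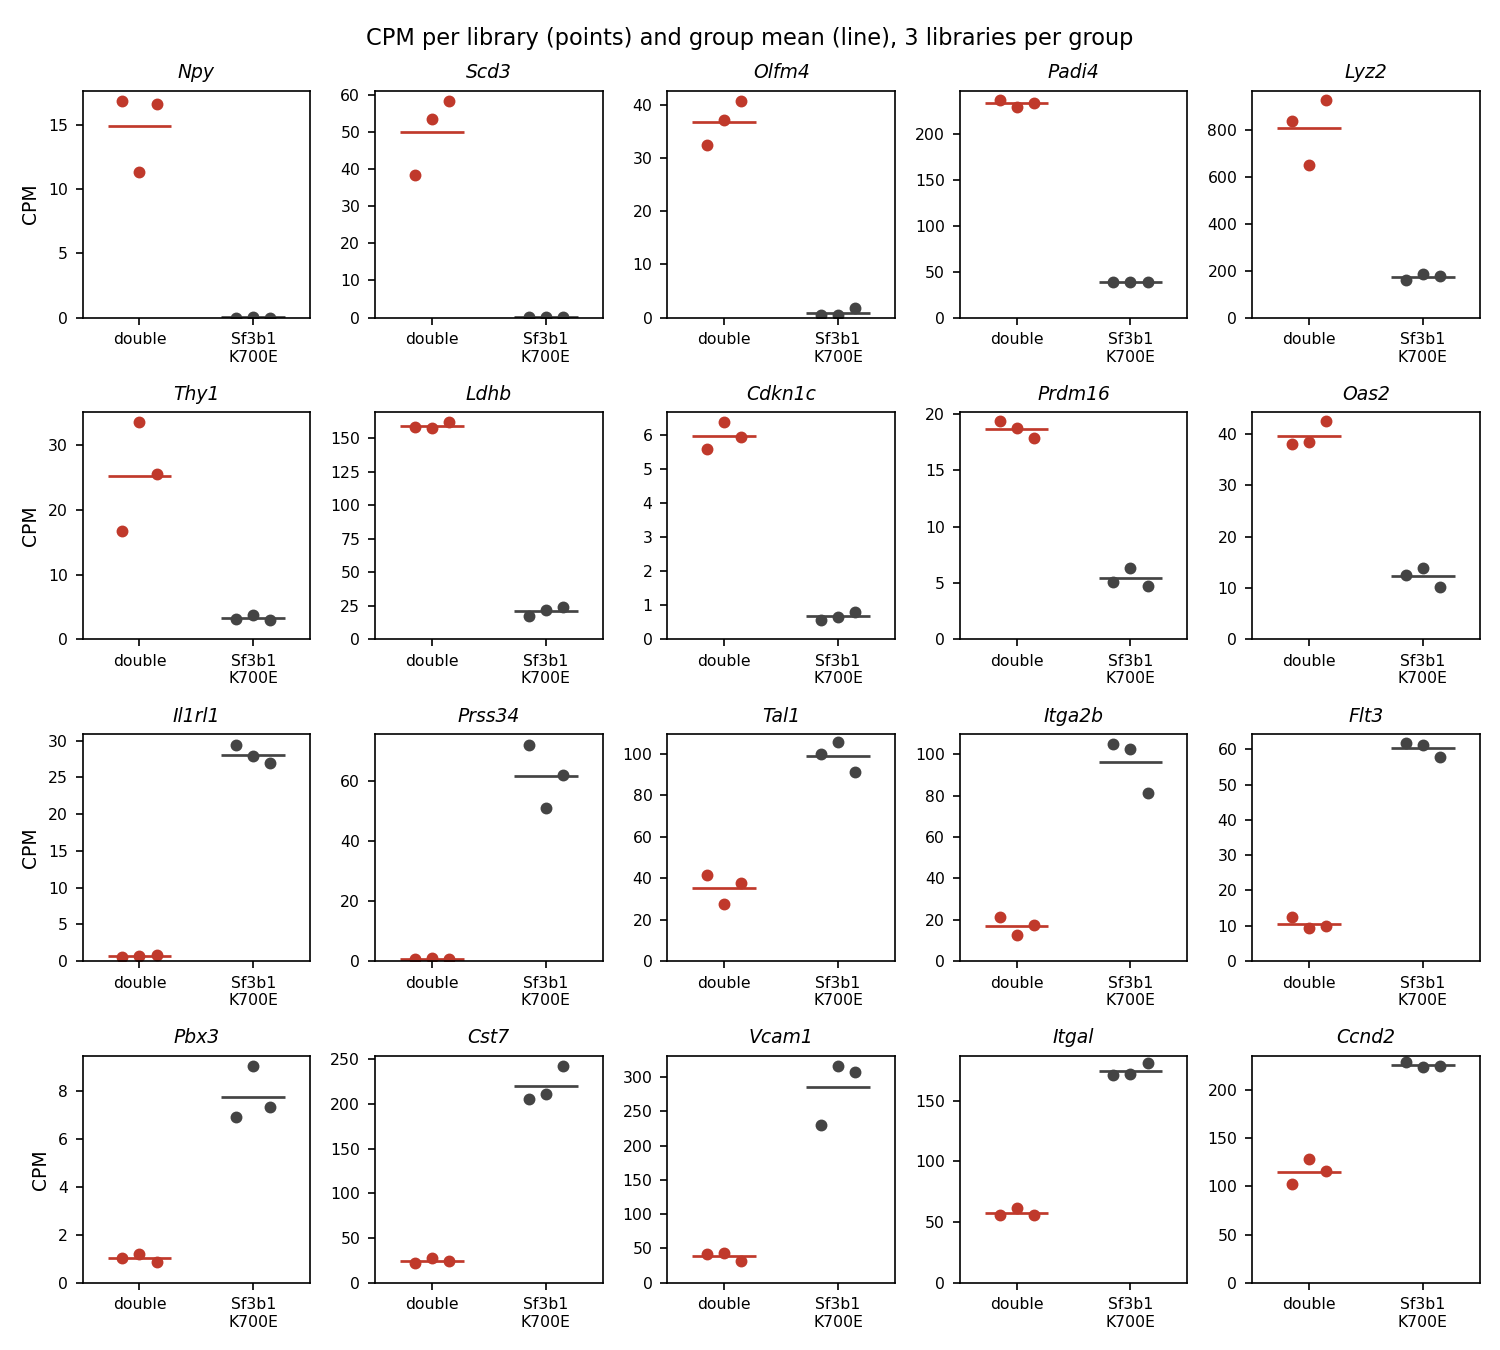
CPM of 20 named genes in each library (points) with the mean of 3 libraries (line), double mutant at left and Sf3b1 K700E at right in each panel, on linear axes that start at 0. In all 20 panels the 2 groups of points are apart, which was part of the rule for genes picked as largest changes. The first 10 genes were higher and the last 10 lower in double mutant libraries.

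Genes of macrophages had the lowest median of the 46 lists, with 21 of 23 tested members lower, 1 higher and a median of -3.05. Their summed level was 454, 391 and 441 CPM in double mutant libraries against 986, 1208 and 859 CPM in Sf3b1 K700E libraries, and 667 to 723 CPM in control libraries. A few abundant genes weigh most in this sum. Vcam1, also a gene of stroma and progenitors, had 9197 counts in double mutant, 71232 in Sf3b1 K700E and 73763 in control libraries. The double mutant sum below control therefore rests largely on Vcam1 and does not measure macrophage genes in general. C1qa, a chain of complement C1q made by macrophages, had 1.24, 2.60 and 1.83 CPM in double mutant libraries against 30.2, 33.2 and 16.0 CPM in Sf3b1 K700E libraries, with a control mean of 5.40 CPM. Axl, a receptor for apoptotic cells, had 5.51, 8.89 and 7.62 CPM in double mutant libraries against 58.9, 76.7 and 34.9 CPM in Sf3b1 K700E libraries, with a control mean of 13.03 CPM. Mrc1, the mannose receptor CD206, fell by 2.42 ± 0.28, and Adgre1, which encodes the macrophage antigen F4/80, fell by 0.94 ± 0.12. For these genes the Sf3b1 K700E libraries stood above the control mean as well, and the lowest of the 3 in C1qa, Axl and Mrc1 was replicate 3, the library with the least Xist. With the Xist term 10 of the 23 were lower, none was higher, and the median was -1.91. The calls of Axl, C1qb, Mrc1 and Adgre1 ended there, at changes of -1.44, -1.91, -1.01 and -0.35, which were smaller than the -2.95, -3.78, -2.42 and -0.94 without the term. The part of Xist, and of the cells these markers stand for, in the other differences was not tested.

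Some macrophage genes were as high in control libraries as with Sf3b1 K700E. The iron exporter gene Slc40a1 had 46.7, 54.9 and 47.1 CPM in double mutant libraries against 113, 149 and 122 CPM in Sf3b1 K700E libraries and a control mean of 116 CPM, and like Vcam1 it kept its call with the Xist term. MHC class II genes had 8 of 10 lower and none higher, with a median of -1.65. Cd74, the invariant chain, had 26.2, 66.4 and 31.7 CPM in double mutant libraries against 212, 146 and 120 CPM in Sf3b1 K700E libraries, with a control mean of 105 CPM. H2-Ob and H2-DMa fell by 1.73 ± 0.11 and 1.35 ± 0.19. Once Xist was a term, 2 of 10 were lower, and Cd74, H2-Aa, H2-DMb1 and Ciita, the class II transactivator, lost their calls at changes of -0.62, -0.85, -0.32 and -0.78. Monocyte and dendritic genes had 13 of 27 lower and 8 higher, and 4 lower and 4 higher with the Xist term. Ccr2, the receptor for monocyte chemoattractants, fell by 1.40 ± 0.11, and Csf1r, the M-CSF receptor, fell by 1.37 ± 0.39 and lost its call with the Xist term at a change of -2.01. F13a1, coagulation factor XIII, had 1343, 962 and 1190 CPM in double mutant libraries against 397, 425 and 480 CPM in Sf3b1 K700E libraries, and Cd68 rose by 1.52 ± 0.11.

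**Figure D4:**
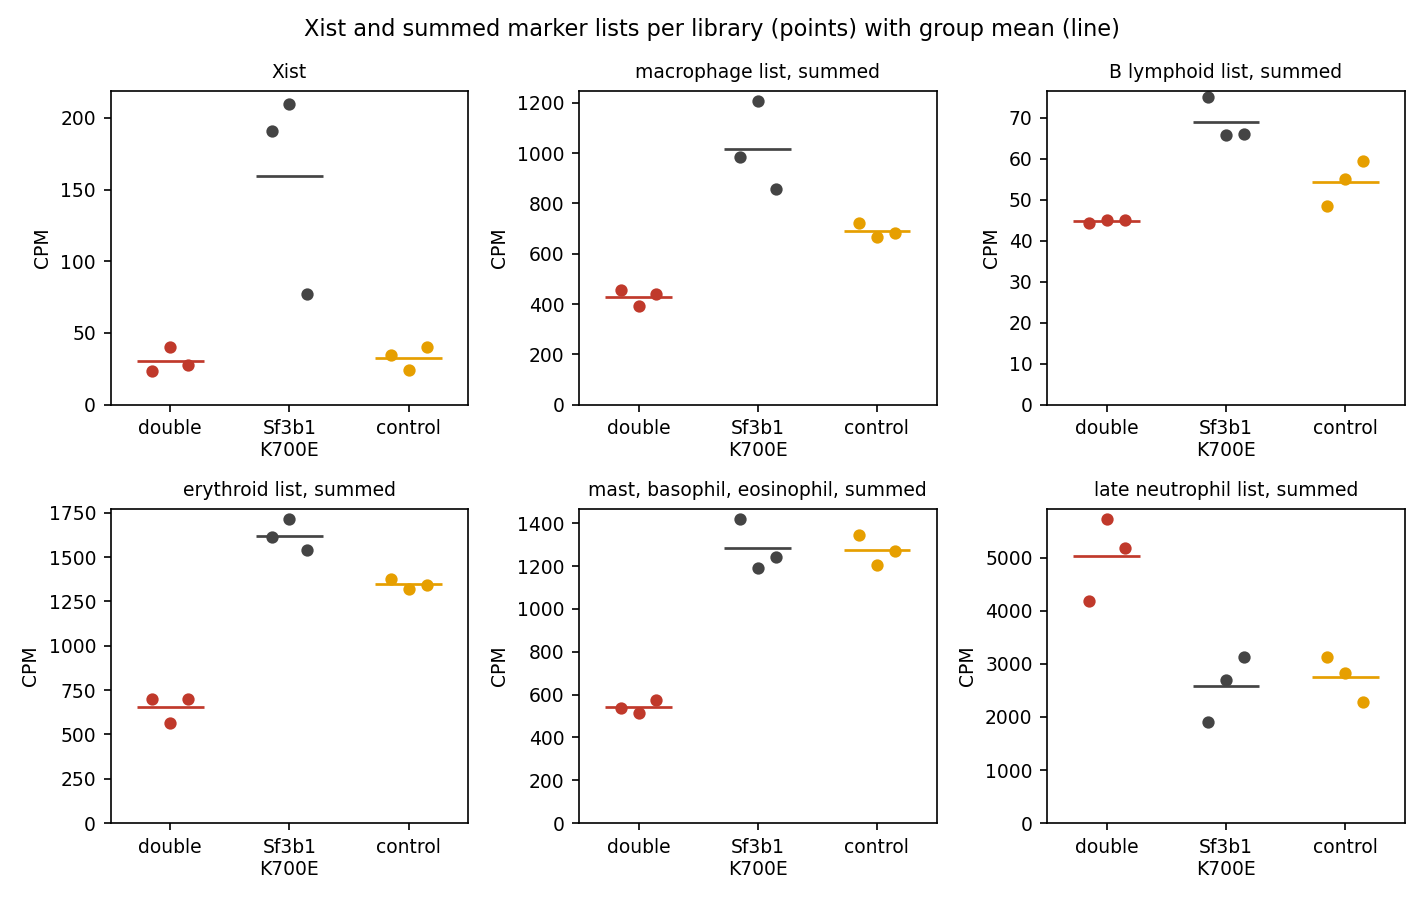
Xist and the summed CPM of 5 marker lists in each double mutant, Sf3b1 K700E and control library (points) with group means (lines). Xist is highest in Sf3b1 K700E libraries and overlaps between the other groups. The mast cell, basophil and eosinophil sum overlaps between Sf3b1 K700E and control libraries and lower in double mutant libraries, whereas the macrophage and B lymphoid sums of Sf3b1 K700E libraries lie above both other groups.

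B lymphoid genes had 16 of 21 lower and 1 higher, with a median of -1.95, at very low levels. Genes this low can pass the low-count filter through the Sf3b1 K700E libraries alone, which favours calls of lower. The count and the median may therefore partly reflect the filter. With no low-count filter 18 of 24 were lower and 1 was higher. With a minimum mean of 5 CPM 2 of 3 were lower and 1 was higher. Ebf1, a factor that commits cells to the B lineage, had 4 counts over 3 double mutant libraries, 76 over 3 Sf3b1 K700E libraries and 5 over 3 control libraries. Cd22, a B-cell receptor inhibitor, had 29, 598 and 541 counts in the same order of groups. Rag2, of the recombinase that assembles antigen receptors, had 22, 402 and 415 counts. The early lymphoid gene Rag2 and the receptor gene Cd22 were thus at similar counts in Sf3b1 K700E and control libraries, unlike Ebf1. Dntt, also an early lymphoid gene, had 92, 4913 and 3223 counts in the same order of groups. In the fit with Xist, 6 of 21 were lower and 1 was higher, and the calls of Ebf1 and Pou2af1 ended at changes of -3.80 and -1.64, against -4.05 and -3.02 without the term. Genes of T and NK cells were mixed, with 5 of 14 lower and 3 higher, and 2 each way with the Xist term. Thy1, a surface glycoprotein of T cells and some stem cells, had 16.8, 33.6 and 25.6 CPM in double mutant libraries against 3.16, 3.73 and 2.96 CPM in Sf3b1 K700E libraries, and the protease gene Gzmb rose by 1.999 ± 0.19. Genes of stroma and endothelium had 7 of 10 lower and 2 higher, with 4 lower and 0 higher under the Xist term, and Emcn, Kdr, Col1a1 and Col1a2 were below 3 CPM on average in both groups.

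Stem cell and early progenitor genes had 16 of 32 lower and 7 higher, with a median of -0.31, and 7 lower and 1 higher with the Xist term. Flt3, the cytokine receptor of multipotent and lymphoid progenitors, had 12.5, 9.43 and 9.94 CPM in double mutant libraries against 61.8, 61.3 and 57.8 CPM in Sf3b1 K700E libraries. Hlf, a factor of stem cells, had 21.1, 19.3 and 13.8 CPM in double mutant libraries against 48.0, 53.9 and 45.5 CPM in Sf3b1 K700E libraries. Ly6a, the Sca-1 antigen, moved the other way, with 47.4, 51.7 and 62.3 CPM against 5.58, 7.02 and 4.58 CPM, the double mutant first. Homeobox genes of the HOX, MEIS and PBX families had 10 of 20 lower and 1 higher, and 4 lower and 0 higher with the Xist term. Hoxa9 had 5.90, 4.25 and 4.52 CPM in double mutant libraries against 20.6, 31.0 and 28.1 CPM in Sf3b1 K700E libraries, and its cofactors Pbx3 and Meis1 fell by 2.93 ± 0.15 and 1.19 ± 0.25. Of 10 genes of the PRDM family 3 rose and 3 fell, close to the shares of all genes. With the Xist term 1 was lower. Prdm16, a close relative of Mecom, had 19.4, 18.8 and 17.9 CPM in double mutant libraries against 5.09, 6.36 and 4.72 CPM in Sf3b1 K700E libraries, and rose by 1.79 ± 0.35. With the Xist term the calls of Prdm16 (edgeR adjusted p = 0.14), Meis1 and Hoxa10 ended at changes of 1.89, -1.18 and -3.43, against 1.79, -1.19 and -4.31 without it, and those of Flt3, Hlf, Ly6a, Hoxa9, Hoxb2 and Pbx3 held. Meis1 also lost its call without Sf3b1 K700E replicates 1 and 2 (edgeR adjusted p = 0.071).

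Receptors through which progenitors sense cytokines had 16 of 36 lower and 5 higher, and 7 lower and 0 higher with the Xist term. Csf3r, the G-CSF receptor of neutrophils, rose by 0.71 ± 0.07 and Csf2ra, the GM-CSF receptor alpha chain, by 0.81 ± 0.14. Csf2rb, the beta chain that GM-CSF, interleukin 3 and interleukin 5 share, had 66.8, 54.9 and 62.1 CPM in double mutant libraries against 140, 140 and 160 CPM in Sf3b1 K700E libraries. The chains of the GM-CSF receptor changed in opposite directions, although the rises of Csf2ra and Csf3r ended with the Xist term (edgeR adjusted p = 0.082 and 0.053, at changes of 0.70 and 0.61) and the fall of Csf2rb did not. Among receptors for chemotactic signals, 9 of 23 were lower and 6 higher, the rises close to the 25.7% of all genes. With the Xist term 6 were lower and 1 higher. Ccr1 rose by 2.52 ± 0.21 and Cxcr2, the interleukin 8 receptor of neutrophils, by 1.36 ± 0.15. The sphingosine phosphate receptor genes S1pr1 and S1pr3 fell by 3.40 ± 0.31 and 3.29 ± 0.52, and the eotaxin receptor gene Ccr3 by 4.22 ± 0.48.

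Surface adhesion genes had 13 of 34 higher and 16 lower, or 3 each way with the Xist term, with Itgam (1.12 ± 0.14) and Itga6 (0.59 ± 0.06) among the rises and Itgb7 (-1.17 ± 0.14), Itga9 (-3.57 ± 0.38) and Icam1 (-0.75 ± 0.08) among the falls. In the LY6 family 5 of 9 rose and 2 fell, and 4 were higher and 0 lower with the Xist term. Ly6e, an interferon-inducible antigen, had 1763, 1694 and 1846 CPM in double mutant libraries against 885, 866 and 851 CPM in Sf3b1 K700E libraries. Ly6c2, one of the genes behind the monocyte antigen Ly6C, fell by 0.32 ± 0.08. Paired activating and inhibitory receptors had 13 of 24 lower and 6 higher, and 5 lower and 2 higher with the Xist term. Their adaptor genes went in opposite directions: Tyrobp (DAP12) had 240, 243 and 249 CPM in double mutant libraries against 94.7, 99.7 and 105 CPM in Sf3b1 K700E libraries, and Fcer1g, the common Fc receptor gamma chain, had 28.3, 20.5 and 24.5 CPM against 55.7, 58.8 and 57.3 CPM, the double mutant first. The adaptor genes and Ly6e kept their calls with the Xist term, while Itgam, Itgb7, Icam1, Cxcr2 and Ly6c2 did not, at changes of 0.71, -1.01, -0.69, 1.14 and -0.48 with it.

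Interferon-stimulated genes rose broadly, with 27 of 39 higher, 3 lower and a median of 0.44. Oas1a, Oas2 and Oas1g make the oligoadenylates that activate RNase L on viral RNA. Oas2 had 38.1, 38.4 and 42.7 CPM in double mutant libraries against 12.6, 13.9 and 10.3 CPM in Sf3b1 K700E libraries, and Oas1a and Oas1g rose by 1.08 ± 0.05 and 2.38 ± 0.16. The RNA sensor genes Ddx58 (RIG-I) and Dhx58 rose by 0.82 ± 0.07 and 0.65 ± 0.06. The list kept 15 rises and 1 fall with the Xist term, at a median of 0.72, and 23 rises and 1 fall without Sf3b1 K700E replicates 1 and 2. Interferon-inducible GTPase genes were mixed, with 8 of 18 higher and 5 lower, the falls close to the 23.5% of all genes. With the Xist term 4 were higher and 0 lower. Irgm2, Gbp2 and Gbp5 rose, by 0.79, 0.56 and 0.69, and Gbp8 and Ifi47 fell (changes of -3.38 and -0.31). Gbp5, Gbp8 and Ifi47 lost their calls with the term, at changes of 0.72, -1.97 and -0.12. Pattern recognition genes had 13 of 32 higher and 13 lower, and 3 higher and 7 lower with the Xist term. Gsdmd, the pore-forming gasdermin D, rose by 0.61 ± 0.04, and Cd180, a Toll-like receptor homologue of B cells and macrophages, fell by 2.52 ± 0.13.

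Genes of DNA replication and division fell by small amounts. Of 26 S-phase genes 18 were lower and none higher, with a median of -0.17, and of 22 genes of G2 and mitosis 10 were lower and none higher, with a median of -0.13. Ccne1, cyclin E1, had 15.4, 16.7 and 16.2 CPM in double mutant libraries against 23.4, 24.3 and 22.4 CPM in Sf3b1 K700E libraries. Pcna, the replication clamp, fell by 0.21 ± 0.03. Mki67 changed by -0.14 ± 0.06 and did not pass. These small shifts depend on the scaling and the fit: with the Xist term no gene of either list passed, and leaving out genes under a mean of 5 CPM gave 17 of the mitotic genes as lower. Of 16 genes of G1 and its kinases 4 rose and 3 fell, close to the shares of all genes, with larger changes. With the Xist term 3 were higher and 2 lower. Cdkn1c (p57), an inhibitor of cyclin-dependent kinases in quiescent stem cells, had 5.59, 6.37 and 5.93 CPM in double mutant libraries against 0.56, 0.65 and 0.81 CPM in Sf3b1 K700E libraries. Cdkn2c (p18) rose by 1.33 ± 0.10. Ccnd2, cyclin D2, had 102, 128 and 116 CPM against 229, 224 and 225 CPM, the double mutant first, while Ccnd1 rose by 0.69 ± 0.19 but no longer passed without Sf3b1 K700E replicate 3 (edgeR adjusted p = 0.054).

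Genes of ribosome production had 14 of 26 lower and none higher, with Ncl, Npm1 and Odc1 lower by 0.34, 0.30 and 0.58. Myc itself had 340, 283 and 293 CPM in double mutant libraries and 288, 239 and 229 CPM in Sf3b1 K700E libraries, which overlapped, and its change of 0.28 ± 0.11 did not pass (edgeR adjusted p = 0.054). That call depended on the setting. Myc passed as higher in DESeq2 (adjusted p = 0.0358), in limma-voom (0.0469) and in edgeR with the 9 libraries with Y-linked RNA (0.0443). It also passed in edgeR without Sf3b1 K700E replicate 1 (0.0123) or double mutant replicate 2 (0.0496). Of 54 ribosomal protein genes 5 were higher and 1 lower. That count was 18 higher without Sf3b1 K700E replicate 1, 0 without Sf3b1 K700E replicate 2 or 3, and 1, 3 and 2 without double mutant replicates 1, 2 and 3. The respiratory chain had 20 of 38 genes lower and 1 higher, with a median of -0.15, for example Ndufa4 (-0.46 ± 0.05) and Atp5b (-0.25 ± 0.04). Under the Xist term, 1 nucleolar gene, no ribosomal protein gene and 1 respiratory chain gene were lower.

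Glycolysis genes rose more often than they fell, with 14 of 26 higher and 6 lower, and 4 higher and 1 lower with the Xist term. Lactate dehydrogenase, the enzyme that joins pyruvate and lactate, changed its gene usage. Ldhb, the heart-type subunit, had 158, 158 and 162 CPM in double mutant libraries against 17.6, 21.5 and 24.02 CPM in Sf3b1 K700E libraries, while Ldha, the muscle-type subunit, had 436, 477 and 449 CPM against 641, 632 and 609 CPM, the double mutant first. On the length-corrected TPM scale Ldhb made 32, 30 and 31.9% of the summed Ldha and Ldhb level in double mutant libraries and 3.45, 4.22 and 4.87% in Sf3b1 K700E libraries. The fall of Ldha lost its call with the Xist term (edgeR adjusted p = 0.059, at a change of -0.35) and the rise of Ldhb did not. Fbp1, a gluconeogenic phosphatase, had 81.0, 96.4 and 98.7 CPM in double mutant libraries against 12.7, 13.3 and 16.9 CPM in Sf3b1 K700E libraries. Hk3, a hexokinase of neutrophils, rose by 1.01 ± 0.08, and the glucose transporter gene Slc2a6 fell by 3.74 ± 0.27.

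In fatty acid metabolism 9 of 23 genes rose and 6 fell, and 3 were higher and 1 lower with the Xist term. Scd2, another stearoyl-CoA desaturase, had 637, 680 and 691 CPM in double mutant libraries against 456, 448 and 463 CPM in Sf3b1 K700E libraries. On the TPM scale Scd2 averaged 215 and Scd3 25.7 in double mutant libraries, against 156 and 0.037 in Sf3b1 K700E libraries, while Scd1 was below 1 TPM in all 6. Cpt1a, which brings fatty acids into mitochondria, rose by 0.63 ± 0.09. In cholesterol synthesis 6 of 24 genes fell and 4 rose, the falls at a share close to the 23.5% of all genes, and 3 were lower and 0 higher with the Xist term. Sqle had 18.1, 16.2 and 17.9 CPM in double mutant libraries against 33.2, 36.1 and 34.9 CPM in Sf3b1 K700E libraries. The 4 cholesterol rises became 1 without Sf3b1 K700E replicate 3 and 2 without Sf3b1 K700E replicate 2 or double mutant replicate 3. Eicosanoid genes had 10 of 20 lower and 5 higher, the rises close to the 25.7% of all genes. With the Xist term 5 were lower and 0 higher. Falls included the prostaglandin receptor gene Ptger3 (-2.95 ± 0.17) and the prostaglandin D synthase gene Hpgds (-3.88 ± 0.35). Genes of the ATF4 response and serine synthesis had 10 of 22 lower and 4 higher, with 1 lower and 0 higher under the Xist term, and Psat1 fell by 0.41 ± 0.05.

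Lysosomal genes rose, with 16 of 29 higher, 5 lower and a median of 0.38. Man2b1, the lysosomal alpha-mannosidase, had 660, 647 and 689 CPM in double mutant libraries against 322, 305 and 312 CPM in Sf3b1 K700E libraries, and the protease gene Ctsz and the progranulin gene Grn rose by 0.56 ± 0.05 and 0.41 ± 0.04. With Xist in the fit, 7 of 29 were higher and 1 was lower. Among S100 and annexin genes 8 of 20 rose and 5 fell, 5 rose without Sf3b1 K700E replicate 2, and 0 were higher and 3 lower with the Xist term. The galectin gene Lgals9 had 145, 155 and 147 CPM in double mutant libraries against 297, 321 and 305 CPM in Sf3b1 K700E libraries.

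Immediate early genes had 12 of 21 higher and 3 lower, with a median of 0.66. Fos had 168, 112 and 201 CPM in double mutant libraries against 69.2, 77.2 and 55.1 CPM in Sf3b1 K700E libraries, and its control mean was 133 CPM. Fosb and Zfp36 rose by 1.52 ± 0.29 and 1.301 ± 0.18, and Csrnp1 by 0.84 ± 0.08. Double mutant replicate 2 was the lowest of its group in Fos, Fosb, Zfp36 and Egr1. The count of rises was 7 without Sf3b1 K700E replicate 2 or 3, and 1 with the Xist term, which ended the calls of Fos, Fosb, Zfp36 and Egr1 although their changes were 1.32, 1.79, 1.19 and 1.62 there. Genes of the p53 response had 8 of 23 higher and 4 lower, or 4 and 0 with the Xist term, with Trp53inp1 (1.11 ± 0.09), Pmaip1 (1.17 ± 0.22) and Ddb2 (0.83 ± 0.07) among the rises. Of 23 apoptosis genes 6 rose and 7 fell, shares close to the 25.7% and 23.5% of all genes, and 0 were higher and 1 lower with the Xist term. The falls numbered 3 or 4 without double mutant replicate 3, Sf3b1 K700E replicate 1 or Sf3b1 K700E replicate 2. Bmf, a death-promoting member of the BCL2 family, rose by 1.04 ± 0.12 and Bcl2, a survival member, fell by 0.77 ± 0.09. Of 18 ER stress genes 4 rose and 1 fell, none passed with the Xist term, and Hspa5 did not pass.

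Feedback inhibitors of kinase signalling had 8 of 24 higher and 6 lower, close to the shares of all genes, and 1 higher and 2 lower with the Xist term. Spry4, Spry1 and Spry2, the Sprouty inhibitors of receptor tyrosine kinases, fell by 3.80, 2.13 and 0.47, and Ptpn6, the phosphatase SHP-1, had 321, 339 and 341 CPM in double mutant libraries against 232, 215 and 221 CPM in Sf3b1 K700E libraries. Splicing genes had 8 of 24 lower and 1 higher, all by small amounts. Phf5a and Sf3b3, which sit with Sf3b1 in the same complex, fell by 0.30 ± 0.04 and 0.17 ± 0.04, calls that ended with the Xist term at changes of -0.27 and -0.11, under which 1 splicing gene was lower. Of 27 epigenetic regulators 9 rose and 7 fell, close to the shares of all genes, or 2 and 1 with the Xist term, with Dnmt3a (0.50 ± 0.05) and Idh1 (0.59 ± 0.06) higher and Ezh2 (-0.24 ± 0.04) and Hdac9 (-1.06 ± 0.16) lower. Changes were spread over the autosomes, with 44.4% of tested genes called on chromosome 13 and 53.7% on chromosome 6, and with median changes from -0.043 on chromosome 18 to 0.089 on chromosome 17.

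Setting the effect beside that of inv(3) without Sf3b1 K700E gave few genes with a tested difference between the backgrounds. In the comparison of inv(3) with control, 5102 of 13252 genes passed (38.5%), with 18.4% of genes higher and 20.1% lower. The test of the difference between the effects, an interaction in the same edgeR fit, called 104 genes (0.785%), with 50 more positive and 54 more negative on the Sf3b1 K700E background. Inv(3) libraries held 1794 to 2095 CPM of Xist and at most 8 counts of Y-linked genes, so the sex of the cells goes with 1 of the 4 groups and cannot be told apart from an interaction. Of the 104 genes, 99 were also called between double mutant and Sf3b1 K700E, and 63 were called between inv(3) and control, 14 of these with opposite signs. In 15 of the 104 the Sf3b1 K700E mean was over 2 times that of every other group, and in 7 the double mutant mean was. The call depends on single libraries: it covered 25 genes without double mutant replicate 1, 306 without double mutant replicate 2, 23 without double mutant replicate 3 and 57 and 41 without Sf3b1 K700E replicates 1 and 2. Without both of these Sf3b1 K700E libraries 6 genes were left, Il1rl1, Hba-a1 and Adgre1 among them.

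Il1rl1 fell by 5.41 ± 0.12 with inv(3) on the Sf3b1 K700E background, with a change of -3.83 without it, and the interaction of -1.58 ± 0.16 passed in every alternative run for it (edgeR and other adjusted p at most 0.0168). Hba-a1 fell by 3.40 ± 0.24 on the Sf3b1 K700E background, while without it the change was -0.26 and did not pass, at group means of 8.65 CPM for inv(3) and 10.4 CPM for control. Ldhb rose by 2.92 and by 2.19 on the 2 backgrounds, with means of 153 CPM for inv(3) and 33.6 CPM for control. Npy and Scd3 rose by 11.39 and 9.41 on the Sf3b1 K700E background and by 9.13 and 9.97 without it, and neither interaction passed, at counts close to 0 in both comparison groups. Double mutant and control libraries differed in Npy, Padi4 and Prss34 as double mutant and Sf3b1 K700E libraries did, with control means of 0.013, 37.5 and 56.0 CPM. The comparison of double mutant with control called 5435 genes (41%), with 20.6% of genes higher and 20.4% lower, and it shares the double mutant libraries with the one described here.

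**Figure D5:**
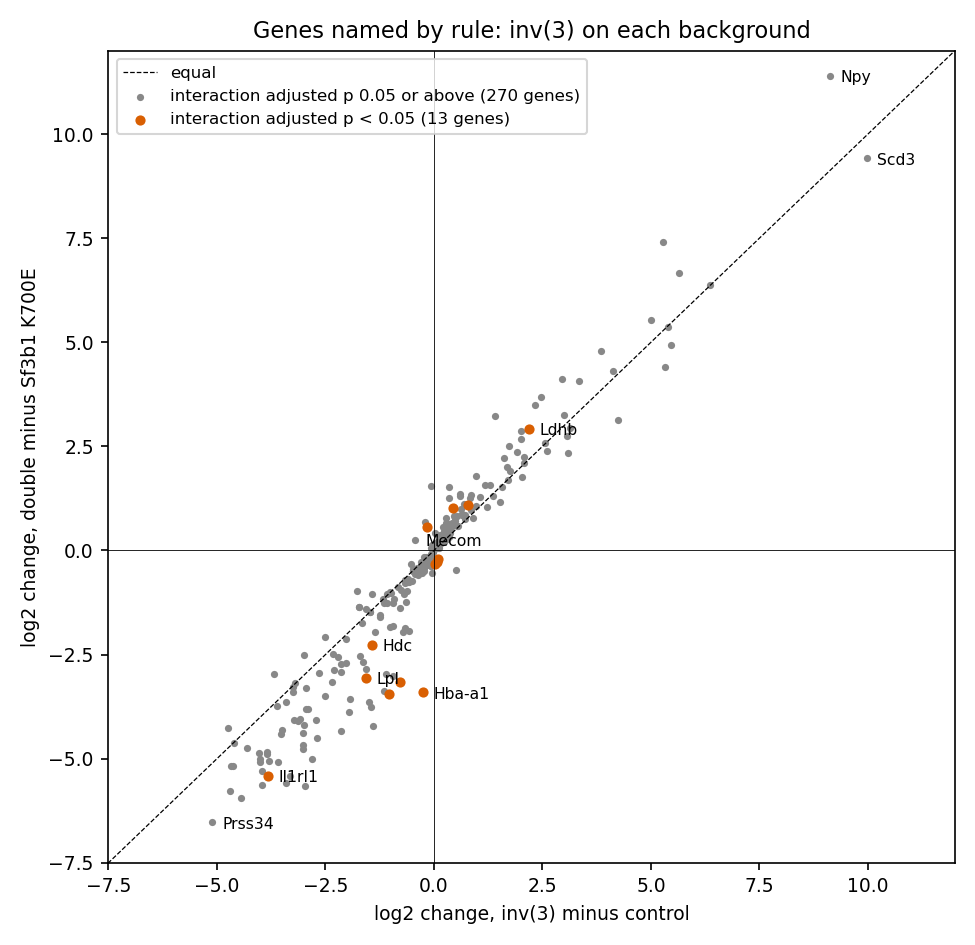
Log2 change of 283 named genes, double mutant minus Sf3b1 K700E (vertical) against inv(3) minus control (horizontal), with orange points for the 13 genes whose interaction passed and a dashed line where both changes are equal. The 2 axes share no library. Hba-a1, Lpl, Hdc and Il1rl1 lie below the line, Ldhb lies above it, and Npy and Scd3 are at the far upper right.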

How the data were processed

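RNA of lineage-negative, cKit-positive marrow cells was sequenced from poly(A)-selected, unstranded libraries, per the labels' protocols. Tools and build named in the submitters' processing notes are bcl2fastq and mm10, and the columns are those of RSEM, per the file headers. The authors deposited expected counts and TPM per gene and library. Expected counts were rounded and tested, and TPM, a length-corrected scale, served only for levels between genes. Of 24411 genes, all but 49 were given a chromosome through a GRCm38 annotation by accession, symbol or synonym. Genes passing edgeR's filterByExpr entered quasi-likelihood models of edgeR 4.0.16 under R 4.3.3, after TMM scaling, over 4 groups of 3 libraries, p-values were adjusted by Benjamini-Hochberg over all 13755 tested genes, and autosomal genes are reported. CPM values are TMM-scaled. The fit was tested on simulated data of 13586 genes, for which 200 were changed, with 8 false calls among 13388 unchanged genes. It recovered 50% of genes at a log2 change of -0.5 and 53.8% at 0.5. Recovery was 70% at -1 and at 1, and 92.3% at -2, so smaller changes can fail to pass. Far fewer genes were changed there than were called in the data, so the simulation does not cover scaling under so broad a change. Replicate numbers were not used as pairs. Intervals on ratios of summed counts cover counting error only, since reads carry no molecular identifiers.

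Members and gene lists were chosen with earlier results of these data known. Genes named include the 12 largest changes per direction among called genes reaching 5 CPM, and the 8 largest per direction among those of at least 100 CPM. Both sets hold only genes whose 6 libraries did not overlap between groups, without predicted genes, clones and pseudogenes. Others are genes at the count limits and neighbours of the alleles. From each list, up to 5 members with the smallest p in this comparison were named, whether or not they passed. Further members were named after their values were seen. Alternatives were other scalings, filters, tools and sample sets, DESeq2 1.42.0 and limma 3.58.1 among them. Some named genes are not reported here.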

Additional observations from a re-analysis of the deposited data

Results flagged for a closer look

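For 18 named genes the effect of inv(3) differed between the Sf3b1 K700E and the Sf3b1 wild-type background by edgeR's interaction test at an adjusted p below 0.05. The inv(3) group also differs from the other groups in the sex of its cells, and whether this has a part in the differences cannot be told apart. The interaction is the log2 change on the Sf3b1 K700E background minus that without it.

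Among genes of mast cells and erythroid cells the interaction was -1.575 for Il1rl1, -0.837 for Hdc, -3.145 for Hba-a1, -3.219 for Hbb-b1 and -11.254 for Hba-a2, a near-identical copy of Hba-a1 with 0 counts in control libraries. Among genes of macrophages and granulocytes it was -2.242 for Mrc1, -1.505 for Adgre1, -1.487 for Lpl, -2.422 for Slc11a1 and -2.45 for Camp. Among genes of mitosis it was -0.336 for Cenpf, -0.337 for Ccnb2 and -0.281 for Bub1b, and it was -2.374 for Hpgd, which breaks down prostaglandins. More positive effects on the Sf3b1 K700E background were found for Ldhb (0.731), Man2b1 (0.304), Ly6e (0.592) and Gbp2 (0.724). The interaction of Il1rl1, Hba-a1 and Adgre1 passed in all 16 alternatives. Without Sf3b1 K700E replicates 1 and 2 these were the only genes of the 18 that passed, with edgeR adjusted p of 0.0168, 0.00435 and 0.00259.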

How the results depend on the processing

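The count of higher genes, 3407, was 536 with the Xist term, 2246 with a minimum mean of 5 CPM and 2007 without Sf3b1 K700E replicates 1 and 2, and from 2577 to 3431 with 1 library left out. The count of lower genes, 3109, was 727 with the Xist term and from 2661 to 3065 with 1 library left out. With the replicate number as a block 3133 genes were higher, 2896 were lower and the interaction called 50. Deviations from the group mean correlated at 0.642, -0.008 and 0.157 between same-numbered libraries, and not every library correlated best with its own number. Double mutant replicate 3 and Sf3b1 K700E replicate 2 correlated at 0.575, and double mutant replicate 2 and Sf3b1 K700E replicate 3 at 0.451. Deviations within a group depend on each other, so these values cannot decide whether samples are paired. The interaction called 104 genes, 594 with DESeq2, 6 without Sf3b1 K700E replicates 1 and 2, and 23 to 306 with 1 library left out. The log2 change of Ltf in double against Sf3b1 K700E libraries was between -2.308 (without double mutant replicate 3) and 1.713 (without double mutant replicate 1), the 1 called value of a named gene that reversed. Over 346 named genes and all alternatives, 6231 values kept their call, 251 lost it, 136 of these with the Xist term, and 20 gained it. The cause of these shifts was not tested. The Xist term was not run for the interaction. At a count of 0 in 3 libraries, ratios have only a lower limit.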
